A study of Mus musculus with 7 samples.

Results

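Langerhans cells are the antigen-presenting cells that live among the keratinocytes of the epidermis. The values below are those of Langerhans cells at steady state, taken from naive, that is untreated, adult wild-type C57:Bl6 mice. They are the 4 naive arrays of the 7 arrays of the series, chosen by their labels, and are called arrays 1 to 4 after their replicate numbers. The other 3 arrays came from mice given 12 Gy of radiation and enter no value here. Cells were sorted by flow cytometry straight into Trizol and pooled to over 10000 cells per sample, and the ImmGen consortium made the arrays. The labels leave out the gate of the sort, the sex of the mice and whether the samples came from separate mice, so the spread between arrays may be technical. The labels of arrays 1 and 4 each cite an earlier record and those of arrays 2 and 3 cite none.

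Langerhans cells send dendrites between keratinocytes, take up material through surface lectins and Fc receptors, and load peptides onto MHC class II molecules in lysosome-like compartments. They depend on the cytokines IL-34 and TGF-beta, they renew themselves within the epidermis, and on activation they leave for the lymph node along ligands of the chemokine receptor CCR7. Their defining lectin is langerin, the product of Cd207, and the adhesion molecule E-cadherin holds them among their neighbours. They also carry EpCAM at their surface. In contrast to other dendritic cells they descend from embryonic macrophage precursors.

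The unit of every level below is the log2 of a deposited intensity, with 1 probe set kept for each of 21755 gene symbols (the one with the highest mean over the 4 arrays). Probe sets shine with different brightness, so a rank is a rank of signal and the level of one gene is not set against that of another. As a gauge of background served 1119 symbols of olfactory receptors, a family read mainly in the nose. A symbol was called above the olfactory receptor level where it passed the 95th percentile of that family (5.91 to 6.22 log2) on 4 of 4 arrays. Of the 20636 other symbols 11305, or 54.8%, did so, as did 39 of the olfactory receptor symbols (3.49%). The counts of list members that passed are to be read beside that 54.8%. Pearson correlations between arrays across the 11344 symbols above the level, which are not independent, were 0.954 to 0.97 among arrays 2, 3 and 4, and 0.884 to 0.939 between array 1 and the others. Array 1 therefore stands somewhat apart from the rest, and results that rest on it are named. With 4 arrays the precision is limited.

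**Figure D1:**
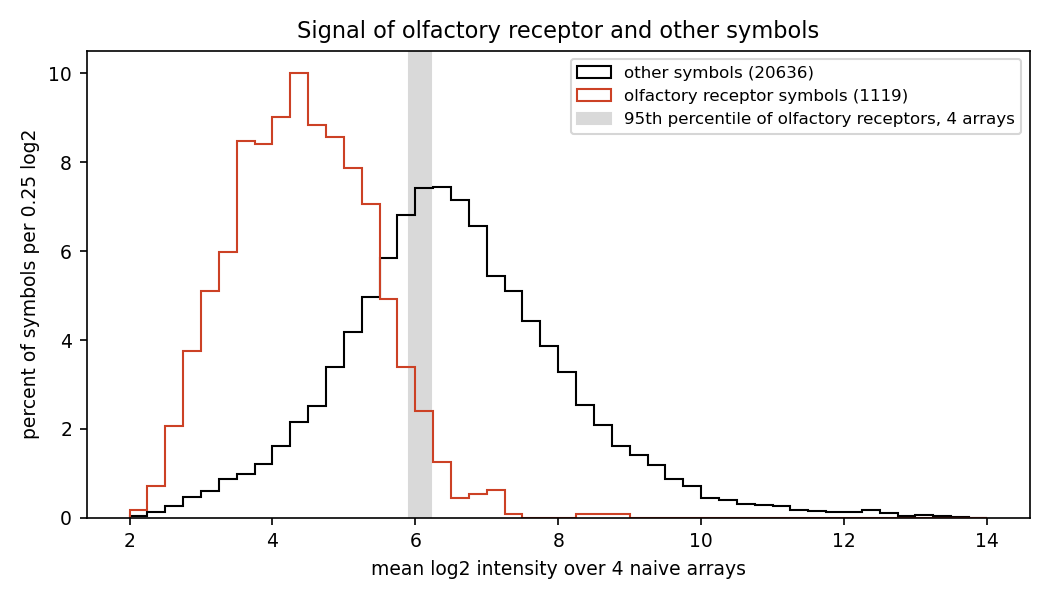
Percent of symbols in steps of 0.25 log2 (y axis) by mean log2 intensity over the 4 naive arrays (x axis), for 1119 olfactory receptor symbols and 20636 others. The grey band spans the limits of the arrays, 5.91 to 6.22 log2, which few olfactory receptor symbols and 54.8% of the other symbols pass on 4 of 4 arrays.

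The label of Langerhans cells was checked against 5 markers, and all 5 were above the olfactory receptor level on all 4 arrays. The langerin gene Cd207 was at 11.49, 10.96, 8.85 and 8.91 log2 on arrays 1 to 4. It was thus high on arrays 1 and 2 and lower on arrays 3 and 4, with a 6.24-fold range of intensity, and even its lowest value lay at the percentile 91.6 of its array. Epcam stood at 9.74, 9.76, 8.74 and 9.06 log2 and repeats that order of the pairs. Mfge8, the gene of a secreted bridge between dying cells and phagocytes, read 12.78, 13.01, 11.33 and 11.65 log2, again with both of arrays 1 and 2 above both of arrays 3 and 4. Cd74 and H2-Aa, the remaining markers, differed by at most 0.258 log2 between arrays and are described with their family. In bulk samples, fewer cells of a type and less RNA per cell cannot be told apart.

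The promoter of Cd207 is shown because this gene had the widest range of the 5 markers. The 200 bases before its start (RefSeq, GRCm38.p6, chr6:83677858-83678057, minus strand) hold 1 match to TGACTCA, the letters bound by AP-1 factors, searched on both strands and set in capitals. The match begins 7 bases before the start. Such a match is a description of the letters, and 3.66% of all 32851 promoters of that length hold one.
Cd207: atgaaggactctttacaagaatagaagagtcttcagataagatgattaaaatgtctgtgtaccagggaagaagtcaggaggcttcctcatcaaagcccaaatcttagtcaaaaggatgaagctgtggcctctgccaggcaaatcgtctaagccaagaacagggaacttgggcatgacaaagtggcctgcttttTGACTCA

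Of a list of 15 genes known in Langerhans cells 13 passed the level, beside 54.8% of all other symbols, and 9 lay in the top 5% of symbols. As with Cd207, arrays 1 and 2 were high for Cd24a, the gene of a small glycoprotein of the cell surface, at 11.59, 10.89, 9.57 and 9.87 log2. The claudin gene Cldn1, of the adhesion list, whose product makes tight junctions with keratinocytes, averaged 11.83 ± 0.81 log2 (SD, n = 4) and split the arrays in the same way. E-cadherin's gene Cdh1 was read at 9.85, 10.51, 9.43 and 10.03 log2, where array 2 was highest and array 3 lowest. Itgax, the gene of CD11c, was nearly level at 10.26 ± 0.09 log2 (SD, n = 4). A different order was seen for leukocyte and myeloid genes: the gene of the inhibitory receptor SIRP-alpha, Sirpa, was at 9.93, 10.70, 11.45 and 11.18 log2. Ptprc, which encodes the leukocyte antigen CD45, was at 9.21, 9.66, 10.41 and 10.18 log2, and Adgre1, the gene of the F4/80 antigen, at 8.63, 9.27, 10.11 and 9.56 log2. In these 3 genes array 1 was lowest and array 3 highest. Of the list, Cd1d1 was below the level on every array, and Gjb2 passed it on 3 of 4.

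**Figure D2:**
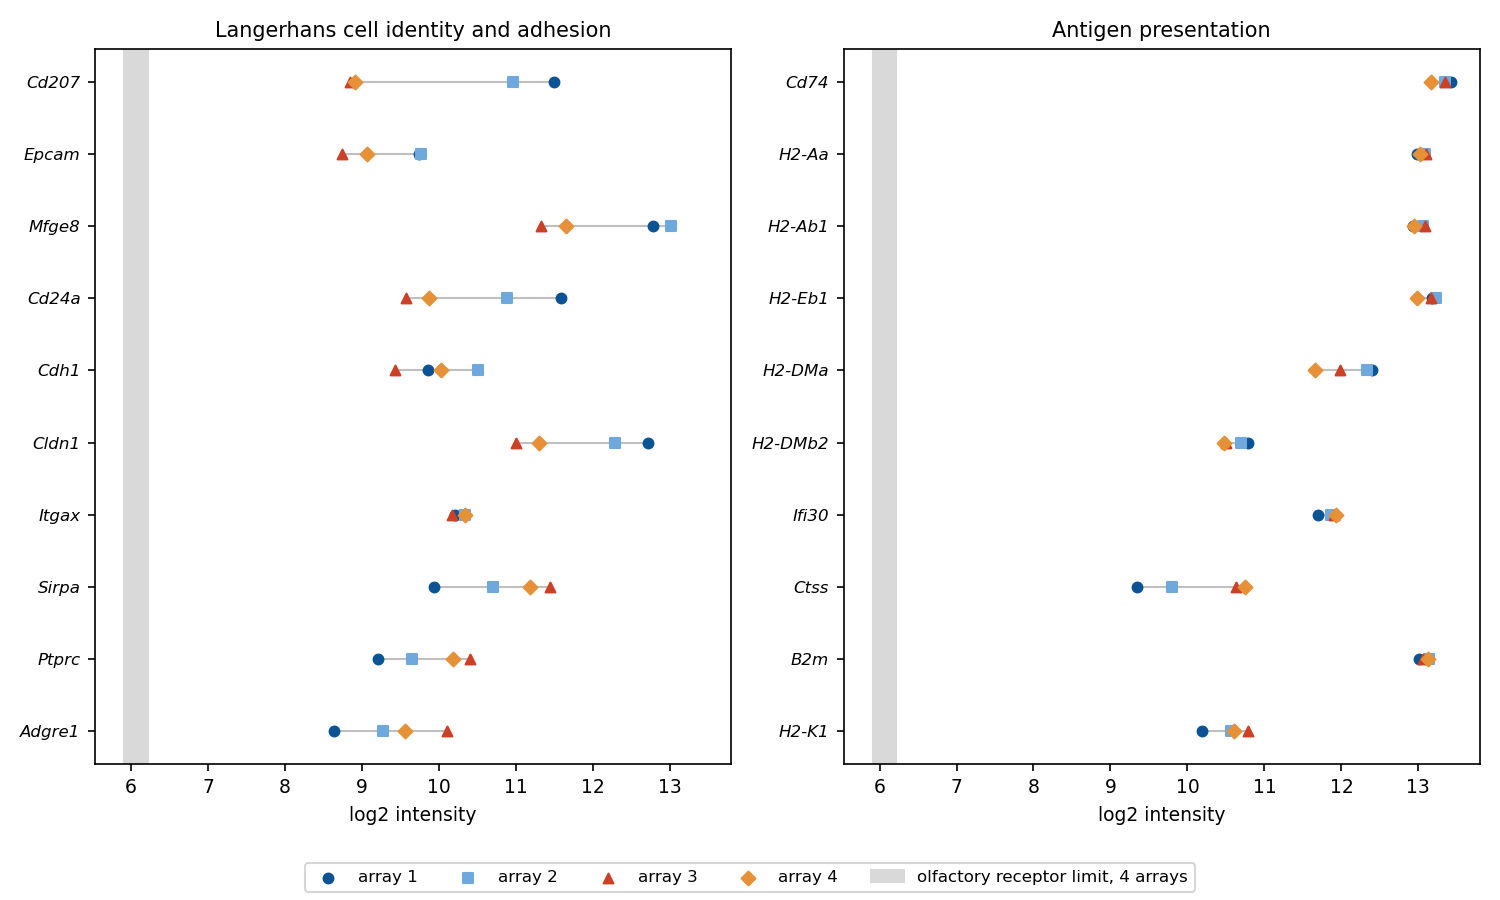
Log2 intensity (x axis) of identity and adhesion genes (left) and antigen presentation genes (right) on arrays 1 to 4, 1 symbol per array with a grey line over the range, and the olfactory receptor limits as a grey band. Cd207 spans 8.85 to 11.49 log2 with arrays 1 and 2 high, while the points of H2-Aa nearly coincide.

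MHC class II genes were among the brightest symbols. All 12 members in the table were above the level, 8 of 12 lay in the top 5% of symbols, and the median SD of the list was 0.18 log2, beside 0.211 over the 14113 symbols that passed the limit on at least 1 array. Cd74, the invariant chain that escorts class II molecules, was at 13.42, 13.34, 13.35 and 13.16 log2, with the rank 12 of its mean among all symbols. H2-Aa was at 12.98, 13.08, 13.10 and 13.02 log2 and H2-Ab1 at 12.93, 13.06, 13.09 and 12.94 log2, the alpha and beta chains of the I-A molecule. The I-E beta chain gene H2-Eb1 was read at 13.18, 13.23, 13.16 and 12.98 log2. These 4 genes had SDs of 0.06 to 0.11 log2, and no array was high or low throughout. H2-DMa and H2-DMb2, which exchange peptides on class II molecules, averaged 12.09 ± 0.34 and 10.61 ± 0.15 log2 (SD, n = 4). Ifi30, a thiol reductase of the loading compartment, was at 11.85 ± 0.11 log2 (SD, n = 4). The member with the widest range was Ctss, the protease cathepsin S that trims the invariant chain, at 9.34, 9.79, 10.63 and 10.75 log2, with arrays 3 and 4 above arrays 1 and 2.

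The promoters of H2-Aa and H2-Eb1 are given for their shared Y box, the letters CTGATTGG, searched on both strands and set in capitals. In H2-Aa (RefSeq, GRCm38.p6, chr17:34287824-34288023, minus strand) the match begins 51 bases before the start, and in H2-Eb1 (chr17:34305667-34305866, plus strand) 62 bases before it. Of 11 members of the list with a promoter entry 4 hold these letters within 200 bases, as do 3.54% of all promoters.
H2-Aa: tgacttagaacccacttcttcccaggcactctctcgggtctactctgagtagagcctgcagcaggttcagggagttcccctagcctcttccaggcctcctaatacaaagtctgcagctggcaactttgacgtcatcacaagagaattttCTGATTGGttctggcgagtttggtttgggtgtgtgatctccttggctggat
H2-Eb1: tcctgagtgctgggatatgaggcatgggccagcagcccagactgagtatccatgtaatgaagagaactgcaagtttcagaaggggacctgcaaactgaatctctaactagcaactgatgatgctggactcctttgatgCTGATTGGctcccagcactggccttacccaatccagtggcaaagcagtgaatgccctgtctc

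The class I pathway was read in 17 of 18 members, with Cd1d1 below the level. B2m, the light chain of class I molecules, was at 13.01, 13.14, 13.06 and 13.12 log2, which hardly differ. The heavy chain genes H2-K1, at 10.19, 10.57, 10.79 and 10.61 log2, and H2-D1, at 10.45, 11.25, 11.68 and 11.44 log2, were lowest on array 1. H2-Q6 and H2-Q7 are near-identical to them in parts and may share signal. Tapbp, the gene of tapasin, which holds class I molecules at the peptide transporter, was at 8.77, 9.33, 9.98 and 9.70 log2. Array 1 was the lowest for 15 of the 17 members above the limit on at least 1 array, where it was the lowest for 39.0% of all 14113 symbols. Calr and Pdia3, chaperones of the loading complex, averaged 10.66 ± 0.29 and 10.09 ± 0.23 log2 (SD, n = 4).

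Among the 30 named symbols with the highest mean signal were RNAs that most cells make in quantity, beside genes of antigen presentation. Rn7sk, a nuclear RNA that restrains transcription elongation, was first among named symbols at 13.79 ± 0.14 log2 (SD, n = 4), and Gapdh and Actb followed among the first 4. Mitochondrially encoded genes gave 8 of the 100 highest, among them COX1, CYTB, ND2, ND5, ND4L, ATP6 and COX2, and ribosomal protein genes such as Rpl39, Rps6 and Rps15 gave 17. Histone genes gave 28 of the 100, Hist1h2bj and Hist1h2bl in the first 30, but their coding sequences are so alike that single members are uncertain. The intermediate filament gene Vim was at 13.38, 13.46, 13.31 and 13.31 log2, Fxyd5, the gene of dysadherin, at 13.36 ± 0.04 log2 (SD, n = 4), and Cst3, which encodes the protease inhibitor cystatin C, at 13.15, 13.17, 12.93 and 13.04 log2. These 3 differed little between arrays. Also in this set were S100a11, a calcium-binding protein gene, Sh3bgrl3 and the ferritin heavy chain gene Fth1. Rn18s, a ribosomal RNA symbol, was the exception, at 12.88 log2 on array 1 and 13.87 to 13.99 on the others.

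Genes of the immediate-early and stress response, which cells switch on within minutes of handling or signalling, were read at high levels in these naive cells. All 39 members in the table were above the level, 28 of them in the top 5% of symbols, with list medians of 10.68, 10.03, 9.87 and 9.88 log2 on arrays 1 to 4. The transcription factor gene Atf3 was at 12.32, 12.36, 11.81 and 11.97 log2. The phosphatase gene Dusp1, which switches off MAP kinases, was at 12.32, 12.71, 12.78 and 12.71 log2 and the heat shock gene Hspa1a at 12.65, 12.81, 12.37 and 12.47 log2. Zfp36, whose product destabilises cytokine mRNAs, was at 12.67, 12.31, 11.87 and 11.83 log2, higher on arrays 1 and 2. Hsp90aa1, a chaperone gene, was at 12.32, 11.98, 11.01 and 11.55 log2. The time between killing the mice and lysis is not given in the sources used here, and the part of handling in these levels was not tested.

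C-type lectins, the sugar-binding receptors by which these cells take up microbes, passed the level in part. Of the 53 measured members, 21 passed the level on 4 of 4 arrays, 17 on some arrays and 15 on none. The share of 39.6% on 4 of 4 arrays is below the 54.8% of all other symbols, but on at least 2 arrays 36 of 53 (67.9%) passed, beside 64.0% of all other symbols. The B cell and dendritic cell inhibitory lectin Cd72 had the highest mean of them, at 11.20, 11.14, 10.57 and 10.94 log2. Clec7a, which encodes the beta-glucan receptor Dectin-1, was at 9.78, 9.76, 10.71 and 10.89 log2, higher on arrays 3 and 4. Langerin thus had the opposite order of the pairs to Dectin-1. Clec4e, the gene of the mycobacterial glycolipid receptor Mincle, was at 8.03, 10.06, 10.27 and 11.17 log2, and array 1 was far below the rest. The Dcir family gene Clec4a1 averaged 9.92 ± 0.58 log2 and Clec4a3 was at 7.70, 8.85, 10.37 and 9.49 log2. Cd209a, a relative of human DC-SIGN, was at 8.78, 9.73, 9.85 and 10.12 log2. Its relative Cd209d was at 8.86, 6.75, 10.35 and 8.93 log2, the only one of these whose kept probe set had array 2 lowest by over 2 log2. When array 2 was left out, a different probe set of Cd209a was kept, with a mean of 10.32 log2 over the other arrays. The level of Cd209a on array 2 thus depends on the probe set. The galactose-binding lectin gene Mgl2 was at 7.77, 8.37, 10.36 and 9.26 log2, highest on array 3, and Clec4n, the gene of Dectin-2, at 8.08, 8.26, 8.79 and 9.57 log2, highest on array 4. Cd69, an early activation antigen, was at 8.94, 8.92, 8.34 and 8.76 log2 and Clec2d, a ligand of an inhibitory natural killer receptor, at 9.30 ± 0.61 log2 (SD, n = 4). The mannose receptor gene Mrc1, a macrophage marker, passed on 3 arrays only, at 6.16, 8.56, 10.32 and 9.60 log2. Clec9a, the dead cell receptor of cross-presenting dendritic cells, lay below the level on all 4 arrays at 4.80, 4.76, 5.57 and 4.82 log2. Cd209b, Cd209f and Cd209g were below it as well.

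Galectins and sialic acid lectins passed more often, in 11 of 14. Lgals1 and Lgals3, galectins that bind glycans inside and outside the cell, were at 11.72 ± 0.32 and 11.53 ± 0.37 log2 (SD, n = 4), and both were lowest on array 1 and highest on array 4. Lgals9, a ligand of TIM-3, was at 9.41, 9.91, 10.30 and 10.20 log2. Cd33, an inhibitory sialic acid lectin of myeloid cells, was at 9.84, 9.89, 11.06 and 10.36 log2, with arrays 3 and 4 above arrays 1 and 2. Lgals7, a galectin of stratified epithelium, was at 7.85, 8.94, 7.85 and 9.69 log2, the order of the keratinocyte genes described further on.

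Sensors of microbes were above the level in 28 of 40 members. Cd14, which hands bacterial lipids to Toll-like receptors, was at 8.34, 10.24, 11.11 and 11.26 log2, with array 1 far below the rest. The DNA sensor Tlr9 was at 8.58, 9.21, 10.04 and 9.32 log2 and Tlr2, for bacterial lipopeptides, at 7.83, 8.60, 9.40 and 9.17 log2. The shared adaptor gene Myd88 was steadier at 9.03 ± 0.21 log2 (SD, n = 4). Nlrp3, an inflammasome sensor, was at 9.45, 8.85, 8.72 and 9.25 log2 and Aim2, for cytosolic DNA, at 8.94, 8.29, 8.45 and 8.37 log2, both highest on array 1. Unc93b1, which carries nucleic acid receptors to endosomes, was at 7.01, 8.92, 10.44 and 9.72 log2, and Ifih1, the sensor of long double-stranded RNA, at 7.08, 8.72, 9.06 and 8.99 log2. In both array 1 was lowest by over 1.5 log2. Tlr4, the receptor of lipopolysaccharide, passed the level on arrays 3 and 4 only, at 5.19, 5.97, 6.67 and 7.20 log2. Tlr7, for single-stranded RNA, was below it on array 1 alone, at 5.09, 6.60, 8.18 and 7.55 log2, and Tlr8 showed the same at 4.51, 6.13, 8.46 and 7.49 log2. Array 3 was highest for 30 of the 36 members that passed on at least 1 array, where it was highest for 22.7% of all symbols.

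Fc receptors and receptors that signal through immunoreceptor motifs passed in 22 of 38 members, or 57.9%, near the 54.8% of all other symbols. Their common signalling chains were bright, Fcer1g at 11.40, 11.67, 12.29 and 12.24 log2 and Tyrobp, the gene of DAP12, at 11.63 ± 0.15 log2 (SD, n = 4). Fcgr2b, the inhibitory IgG receptor, was at 11.41, 11.22, 11.68 and 11.70 log2 and differed little. The activating IgG receptor gene Fcgr3 was at 8.47, 8.92, 10.53 and 10.20 log2 and was higher on arrays 3 and 4, and Fcgr4 at 5.12, 6.77, 8.66 and 8.02 log2, below the level on array 1. Gp49a and Lilrb4a, receptor genes of close sequence that may share signal, were at 12.04 ± 0.69 and 10.76 ± 0.88 log2 (SD, n = 4), lowest on array 1. Pirb, which binds class I molecules, was at 9.07, 9.50, 10.58 and 9.87 log2 and Trem2, a lipid receptor of macrophages, at 7.34, 8.36, 9.74 and 9.67 log2. The high-affinity IgE receptor gene Fcer1a did not pass on any array. List medians ran from 6.52 log2 on array 1 to 8.46 on array 3, with 6.98 on array 2 and 7.94 on array 4.

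Of scavenger and uptake receptors and opsonins 28 of 37 passed. The C1q genes, whose products coat dying cells, were among those that differed most between arrays: C1qb was at 10.17, 12.10, 12.66 and 12.39 log2. C1qa and C1qc followed with 8.05 and 8.43 log2 on array 1 and 10.10 to 11.65 log2 on the others. In each, array 1 was below the other 3. Cxcl16, a chemokine that doubles as a scavenger receptor, was at 11.47 ± 0.25 log2 (SD, n = 4). Havcr2, the gene of the checkpoint receptor TIM-3, was at 10.62, 10.35, 9.80 and 10.13 log2, highest on array 1, and Axl, a receptor that recognises dying cells, at 8.15, 9.43, 10.09 and 9.88 log2, lowest there. C3ar1, for the complement fragment C3a, was at 8.49, 9.82, 11.15 and 10.81 log2 and Lrp1 at 7.69, 9.07, 10.15 and 9.89 log2. Mertk, a receptor for apoptotic cells, was at 5.31, 6.48, 7.94 and 7.89 log2 and below the level on array 1. Marco was below it on every array.

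Cytokine and growth factor receptors passed in 62 of 83 members, or 74.7%, beside 54.8% of all other symbols. The GM-CSF receptor was prominent: its alpha chain gene Csf2ra was at 11.94, 11.38, 11.38 and 10.77 log2 and its beta chain gene Csf2rb at 11.20, 10.95, 10.77 and 10.86 log2. Csf2rb2, a mouse copy of the beta chain of close sequence, was at 10.21 ± 0.36 log2. Csf1r, through which IL-34 maintains Langerhans cells, was at 10.14, 10.80, 10.99 and 10.80 log2, with array 1 lowest. The decoy IL-1 receptor gene Il1r2 was at 11.67, 11.18, 10.01 and 10.65 log2 and Il7r, the IL-7 receptor alpha chain, at 11.16, 10.42, 9.81 and 10.80 log2. Both were highest on array 1 and lowest on array 3. The common gamma chain gene Il2rg was at 9.47, 10.22, 10.79 and 10.60 log2, the reverse order of the extremes. Of the interferon receptors, Ifngr2 was at 10.10 ± 0.33, Ifnar2 at 9.78 ± 0.37 and Ifngr1 at 8.46, 8.85, 10.42 and 9.98 log2. Il13ra1 and the TNF receptor Tnfrsf1b averaged 10.05 ± 0.17 and 9.99 ± 0.45 log2 (SD, n = 4). Il2rb, Il5ra, Il13ra2 and Il18r1 were below the level on every array.

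Of the receptor families, chemokine receptors had the lowest share above the level, with 9 of 25, or 36.0%. That stands beside 39.6% of C-type lectins and 54.8% of all other symbols, and 5 more receptors passed on some arrays. Ccr7, the receptor that guides dendritic cells to the lymph node, had their highest mean at 10.46, 10.58, 10.83 and 10.98 log2. The atypical receptor gene Ccrl2, which presents chemerin, was at 9.78, 9.80, 10.42 and 10.51 log2 and Cxcr4, the receptor of CXCL12, at 9.21, 9.17, 9.97 and 9.83 log2. In these 3 genes both of arrays 3 and 4 lay above both of arrays 1 and 2. Ccr1 was at 7.96, 7.59, 7.67 and 8.49 log2. Cmklr1, which binds chemerin for signalling, was at 6.59, 7.27, 8.97 and 8.63 log2, and the fractalkine receptor Cx3cr1 at 6.88, 7.27, 8.36 and 8.39 log2. Ccr10, Ackr2 and Cxcr3 were just above the limit at means of 6.45 to 6.48 log2. Ccr6, whose ligand CCL20 draws Langerhans precursors to the epidermis, passed on array 1 only, at 6.23, 5.45, 5.83 and 5.84 log2. The monocyte receptor Ccr2 was at 5.63, 5.97, 9.70 and 8.25 log2, above the level on arrays 3 and 4 only. Ccr3, Ccr4, Ccr8 and Ccr9 were below it everywhere.

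Receptors for lipids, purines and complement and other G protein-coupled receptors passed in 46 of 60. Gpr183, the receptor for oxysterols, was at 10.08, 10.16, 9.55 and 9.95 log2 and Gpr132 at 10.23, 9.70, 10.24 and 9.54 log2, and neither separated the arrays as the macrophage genes did. P2ry6, for uridine nucleotides, was at 7.79, 8.98, 10.20 and 9.76 log2 and Ptafr, for platelet activating factor, at 7.97, 9.03, 9.98 and 9.43 log2. P2ry13 was at 9.56, 8.74, 8.79 and 8.44 log2, highest on array 1, and P2ry10 at 8.65 ± 0.05 log2 (SD, n = 4). The prostaglandin E2 receptor Ptger4, which licenses dendritic cell migration, was at 8.37, 8.49, 9.04 and 8.73 log2. Its relatives Ptger2 and Ptger3 passed on none and on 1 of the arrays. The leukotriene B4 receptor gene Ltb4r1 was below the level on all 4.

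**Figure D3:**
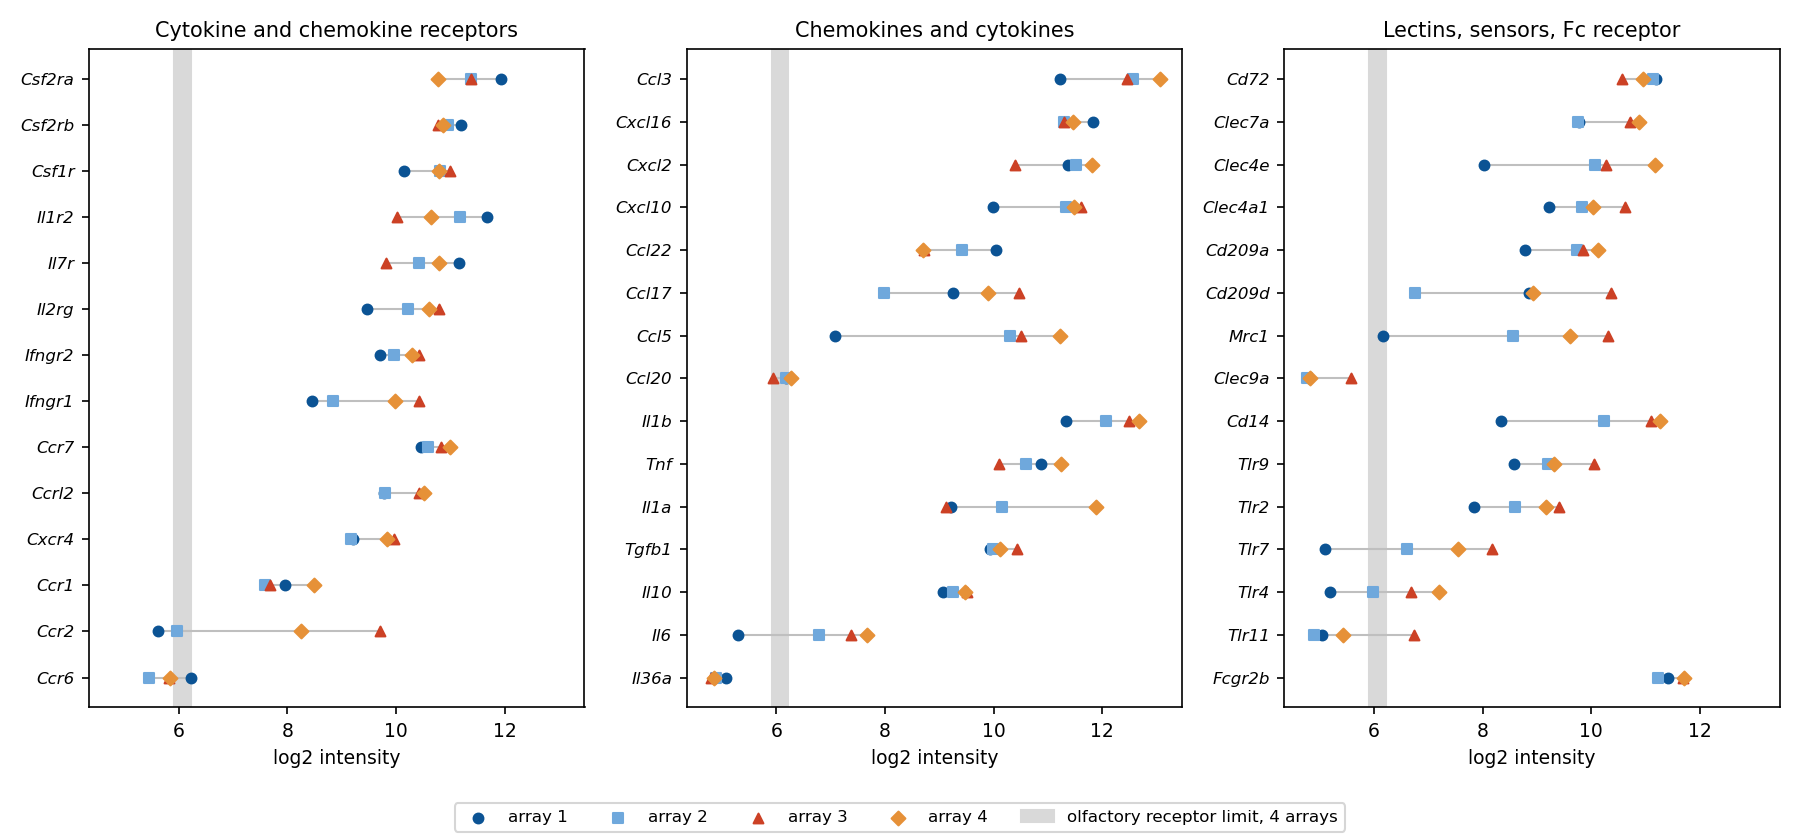
Log2 intensity (x axis) on arrays 1 to 4 of receptor genes (left), chemokine and cytokine genes (middle) and lectins, sensors and an Fc receptor (right), with the olfactory receptor limits as a grey band and a grey line over each range. Csf2rb stays between 10.77 and 11.20 log2, whereas Ccr2 spans 5.63 to 9.70 log2 and Ccl5 7.08 to 11.22 log2.

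Chemokine genes passed in 27 of 38 members, and 11 of them lay in the top 5% of symbols. Ccl3, a ligand of CCR1, was at 11.23, 12.56, 12.45 and 13.06 log2. Cxcl2, which draws neutrophils, was at 11.37, 11.52, 10.39 and 11.81 log2, and Cxcl10, an interferon-driven ligand of CXCR3, at 9.98, 11.33, 11.62 and 11.49 log2. Array 1 was the lowest for Ccl3 and Cxcl10 and array 3 for Cxcl2. Ccl22 and Ccl17, both ligands of CCR4 and products of mature Langerhans cells, did not move alike: Ccl22 was at 10.05, 9.42, 8.71 and 8.70 log2 and Ccl17 at 9.25, 7.98, 10.47 and 9.89 log2. Ccl22 was thus highest on arrays 1 and 2, and Ccl17 on arrays 3 and 4. The monocyte-attracting genes Ccl2, at 8.36, 10.45, 10.63 and 10.13 log2, and Ccl7, at 7.16, 10.26, 10.32 and 10.23 log2, were each over 1.5 log2 lower on array 1 than on any other. Ccl5, at 7.08, 10.31, 10.51 and 11.22 log2, and Ccl9, at 7.27 log2 on array 1 and 10.47 on array 4, showed the same. The interferon-gamma-driven Cxcl9 was at 7.69, 9.50, 10.56 and 10.47 log2. Ccl20, the CCR6 ligand, passed on arrays 2 and 4 only at 6.17, 6.17, 5.93 and 6.26 log2, and Cxcl12 on array 4 only, at 5.88 ± 0.06 log2 (SD, n = 4).

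Cytokine and growth factor genes were read in 38 of 85 members, or 44.7%, beside 54.8% of all other symbols. Il1b had the highest mean of them, at 11.33, 12.07, 12.50 and 12.67 log2. The antagonist Il1rn was at 8.73, 10.51, 10.36 and 11.10 log2 and Il1a at 9.21, 10.15, 9.12 and 11.88 log2, high on array 4. Tnf was at 10.87, 10.59, 10.10 and 11.24 log2, with array 3 lowest. Tgfb1, the cytokine that Langerhans cells need to stay in the epidermis, was steady at 10.11 ± 0.22 log2, and Osm, the gene of oncostatin M, at 10.02 ± 0.28 log2 (SD, n = 4). Spp1, which encodes osteopontin, was at 9.72, 10.46, 9.33 and 11.55 log2 and Vegfa, the vascular growth factor gene, at 9.75, 9.27, 9.08 and 10.08 log2. The growth factor precursor Grn and the macrophage inhibitory factor gene Mif averaged 11.45 ± 0.44 and 10.50 ± 0.36 log2. Il10, an inhibitory cytokine gene, was at 9.07, 9.26, 9.50 and 9.48 log2, and the CD137 ligand gene Tnfsf9 at 10.26, 9.51, 10.08 and 9.94 log2. Il10 was a little higher on arrays 3 and 4, and Tnfsf9 was lowest on array 2. Il6 was below the level on array 1 and above it on the others, at 5.30, 6.79, 7.37 and 7.67 log2, and Il12b likewise, at 6.15, 6.31, 7.40 and 7.52 log2. The IL-12 alpha chain Il12a passed on arrays 1 and 4 only. Il36a, a cytokine of keratinocytes, was below the level on all 4 arrays.

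Transcription factor genes passed in 159 of 184 members, and 35 lay in the top 5% of symbols. Id2 and Runx3 are both needed for Langerhans cells to form. Id2 was at 11.04, 11.04, 11.57 and 11.83 log2. Runx3 was at 11.35, 11.32, 10.76 and 10.73 log2. The pairs of arrays were thus ordered in opposite ways, Id2 higher on arrays 3 and 4 and Runx3 on arrays 1 and 2. Spi1, the gene of the myeloid regulator PU.1, was at 11.12 ± 0.14 log2 (SD, n = 4). Of the AP-1 genes, Fosb was at 11.83, 11.83, 10.80 and 10.94 log2, Fos at 11.14 ± 0.16 log2 and Jun at 11.06 ± 0.28 log2 (SD, n = 4). Of the nuclear receptor genes, Nr4a1 was at 11.21 ± 0.14 log2 and Nr4a2 at 11.12, 10.37, 9.87 and 9.79 log2. Rel, an NF-kappaB subunit gene, was at 11.75, 11.09, 11.22 and 11.01 log2, and Nfe2l2, a regulator of the oxidative stress response, at 10.40 ± 0.30 log2. Zfp36l2, which promotes mRNA decay, was at 10.98 ± 0.21 log2 (SD, n = 4). Among the members that did not pass, Tcf7, Myb, Mycn and Ikzf3 lay below the level on every array, and Gata1 and Lef1 passed on 3 of 4. The epithelial factor Elf3 did not pass on any. An SD over 1 log2 was seen in 2 of the 176 members passing on at least 1 array, beside 1.86% of all 14113 symbols. The list's median SD was 0.27 log2, beside 0.211 over all 14113 symbols.

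Ligands that steer T cells passed in 14 of 28. Cd83, which stabilises class II molecules at the surface, was at 11.11, 11.13, 11.23 and 10.89 log2. Of the CD28 ligands, Cd86 was at 9.74, 9.69, 9.57 and 9.70 log2 and Cd80 at 9.35, 8.70, 9.05 and 9.43 log2. Cd83 and Cd86 had SDs of 0.14 and 0.07 log2. Cd274, the gene of PD-L1, differed far more, with a mean of 9.65 ± 1.45 log2 (SD, n = 4), 7.61 on array 1 as the lowest and array 4 highest, and its relative Pdcd1lg2 passed on arrays 3 and 4 only, at 5.57, 5.18, 6.55 and 6.86 log2. Vsir, the gene of the checkpoint VISTA, was at 8.22, 8.54, 10.01 and 9.42 log2. Cd70 and Vtcn1 were below the level. Of the 35 genes of dendritic cell maturation and migration 32 passed, Tnfaip3, the brake on NF-kappaB, at 10.88, 10.61, 10.53 and 10.87 log2 and Tmem123 at 10.43, 10.16, 10.48 and 10.56 log2, and neither separated the arrays.

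Adhesion and junction genes passed in 41 of 57. Beside Cldn1 and Cdh1, the selectin ligand gene Selplg was at 10.98 ± 0.12 log2, Cd47, a signal against uptake, at 10.12 ± 0.25 log2 and Alcam at 9.59 ± 0.13 log2 (SD, n = 4). Cd44, the hyaluronan receptor, was lowest on array 1 at 9.45 log2 and 10.23 to 10.35 log2 on the others, and the beta2 integrin gene Itgb2 was at 8.43, 9.34, 10.29 and 9.95 log2. The claudin genes Cldn7, Cldn12 and Cldn23 did not pass on any array.

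Lysosomal genes, which serve degradation before loading, passed in 33 of 38, and 16 lay in the top 5% of symbols. Ctsb and Ctsa, cathepsin genes, averaged 11.23 ± 0.38 and 11.21 ± 0.46 log2 (SD, n = 4). Psap, the precursor of lipid-degrading saposins, was at 10.50, 11.54, 12.56 and 12.31 log2, and Lgmn, an endopeptidase gene, at 9.49, 10.76, 11.81 and 11.69 log2. Both were lowest on array 1, as were 27 of the 35 members that passed on at least 1 array, beside 39.0% of all 14113 symbols. Lamp2 was at 10.11, 10.36, 10.57 and 10.66 log2. Lamp3, the gene of DC-LAMP, lay below the level on all 4 arrays at 3.95 ± 0.14 log2.

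Cell cycle genes passed in 37 of 41 members, with a list median between 7.24 log2 on array 1 and 7.99 on array 2. Ccnb2, a mitotic cyclin gene, was at 9.82, 10.28, 9.26 and 9.43 log2, and Ccna2 at 8.46, 9.40, 8.10 and 8.93 log2. Mki67, a gene of dividing cells, was at 9.31, 9.69, 8.77 and 9.56 log2, and Pcna, the sliding clamp of replication, at 9.59, 9.94, 9.80 and 10.01 log2. Array 2 was highest for 26 of 41 members, beside 14% of all 14113 symbols. Both of arrays 2 and 4 lay above both of arrays 1 and 3 for 26 of 41 (63.4%) as well, beside 14.4% of all symbols. The cell cycle inhibitor gene Cdkn1a was at 11.24, 11.47, 11.40 and 11.32 log2, with an SD of 0.10 log2 over these untreated samples.

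Genes of the type I interferon response varied more between the arrays than most symbols did. Of 36 members 27 passed on 4 of 4 arrays and 9 on some, and the median SD was 0.78 log2 beside 0.211 over all symbols. Array 1 was lowest for 34 of 36, beside 39.0% of all 14113 symbols. List medians were 6.68, 7.88, 8.71 and 8.47 log2 on arrays 1 to 4. Rsad2, the gene of viperin, which blocks viral replication, was at 6.96, 10.08, 9.79 and 9.82 log2. Oasl1, of the oligoadenylate synthetase family, was at 7.57, 10.16, 9.82 and 9.48 log2 and Oas2 at 7.92, 9.19, 9.48 and 9.02 log2. The GTPase gene Mx1 was at 5.72, 6.76, 8.54 and 7.61 log2 and Ifit2 at 5.87, 7.50, 8.23 and 8.15 log2. In all 5, array 1 was lowest by over 1 log2. Trim30a and Bst2 were the 2 members lowest on array 2. Little variation was seen in Ly6e, steady at 12.23 ± 0.08 log2 (SD, n = 4), and Isg15, whose probe set stood at 5.94 to 5.97 log2 on every array, near the limit. The monocyte and macrophage genes described below were lowest on array 1 as well, with summed intensities of 4993, 17772, 36016 and 28112 on arrays 1 to 4, and their part in the interferon values was not tested.

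The promoter of Rsad2 is given as the interferon gene of the widest range of those named that has a match. Its 200 bases before the start (RefSeq, GRCm38.p6, chr12:26456453-26456652, minus strand) hold 1 interferon-stimulated response element, TTTCNNTTTC searched on both strands and set in capitals, which begins 120 bases before the start. Of 23 members with a promoter entry 11 hold a match, as do 2.27% of all promoters.
Rsad2: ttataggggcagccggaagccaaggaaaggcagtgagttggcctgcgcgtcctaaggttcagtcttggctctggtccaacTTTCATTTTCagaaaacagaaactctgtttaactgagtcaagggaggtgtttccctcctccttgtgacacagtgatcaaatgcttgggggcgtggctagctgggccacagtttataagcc

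Variation among the naive arrays was concentrated in a small set of symbols. The median SD was 0.211 log2, and 263 of 14113 symbols (1.86%) had an SD over 1 log2. That count rests on array 1 in part, since it was 122 without array 1, 411 without array 2, 265 without array 3 and 284 without array 4. Array 1 was the lowest for 224 of these 263, beside 39.0% of all 14113 symbols. Arrays 3 and 4 were the highest for 133 and 107, beside 22.7% and 25.8% of all symbols. Sorting each symbol's arrays by its widest gap gave 133 symbols with arrays 2, 3 and 4 above array 1, 42 with arrays 3 and 4 high, 39 with arrays 2 and 4 high, 17 with array 4 alone high and 10 with array 1 alone high. Over all 14113 symbols the shares were 21.4% for arrays 2, 3 and 4 together and 21.2% for array 1 alone. They were 7.62% for arrays 3 and 4, 4.28% for arrays 2 and 4 and 6.82% for array 4 alone. The order with array 4 alone high, at 6.46% of the 263, was thus no more frequent among the variable symbols than among all. Arrays 1 and 2 were high in 4 of the 263, of which Cd207 was 1, and in 6.78% of all 14113 symbols.

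Of the 30 most variable named genes 5 belong to the list of monocyte and macrophage markers, namely Lyz1, Lyz2, Ccr2, Fn1 and Mrc1. The ranking by SD rests on array 1 in part. Of the 50 most variable symbols 22 were shared when array 1 was left out, against 38 to 42 without another array. Ear2, a ribonuclease gene of eosinophils and macrophages, had the largest SD, 2.80 log2, at 4.49, 5.76, 10.71 and 8.62 log2. Its near-identical relatives Ear1 and Ear10 may share that signal. Retnla, a gene of alternatively activated macrophages, was at 5.08, 9.41, 10.82 and 9.35 log2 and Clec12a, an inhibitory lectin of monocytes, at 5.61, 7.72, 10.42 and 9.19 log2. The lysozyme gene Lyz2 was at 8.41, 11.65, 12.79 and 12.29 log2, a range of 20.8-fold in intensity. Cybb, which encodes the catalytic subunit of the phagocyte oxidase, was at 7.44, 10.42, 11.66 and 11.36 log2, and the fatty acid receptor gene Cd36 at 5.20, 8.28, 8.82 and 9.39 log2. Fn1, the fibronectin gene that macrophages and fibroblasts both make, was at 7.21, 10.17, 11.30 and 11.04 log2. In these genes array 1 was lowest, and array 3 was highest in all but Cd36, where array 4 was. Of the 20 markers of monocytes and macrophages 12 passed the level on 4 of 4 arrays and 6 on some, and 14 of those 18 had an SD over 1 log2. Array 1 was lowest for 18 of 18 and array 3 highest for 16, beside 39.0% and 22.7% of all 14113 symbols. The summed intensity of the 18 was 4993, 17772, 36016 and 28112 on arrays 1 to 4. Cd163 passed on arrays 2 to 4, and Cd209f was below the level on every array. Both of arrays 3 and 4 lay above both of arrays 1 and 2 for 17 of the 18, beside 27.9% of all 14113 symbols. Of the 14 Langerhans cell genes that passed on at least 1 array, 6 had the opposite order, among them Cd207, Mfge8, Cd24a and Epcam, beside 26.4% of all symbols, and 4 had the order of the macrophage genes, among them Ptprc and Sirpa. The part of other cells in these values was not tested.

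**Figure D4:**
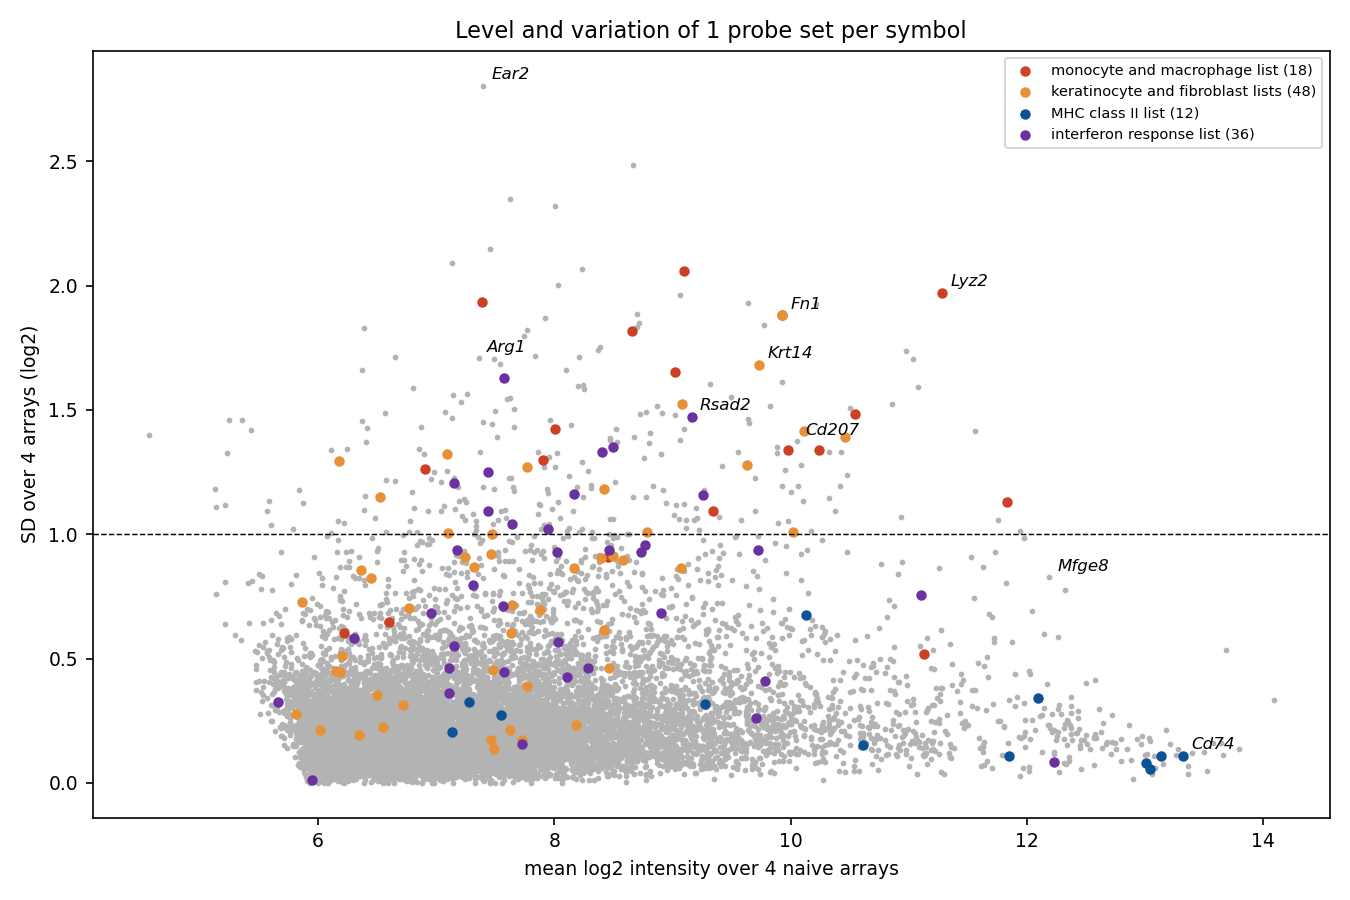
SD over the 4 naive arrays (y axis, log2) against mean log2 intensity (x axis) for 14113 symbols in grey, with members of 5 gene lists coloured and the line at an SD of 1 log2. Lyz2 and Fn1 (on 2 of the lists, drawn as a fibroblast gene) lie far above that line and MHC class II genes, Cd74 among them, far below it at the bright end.

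A second set followed arrays 2 and 4, an order that 26 of the 41 cell cycle genes had too. Of 32 keratinocyte genes 22 passed on 4 of 4 arrays and 10 on some, and array 4 was highest for 23 and array 3 lowest for 22, beside 25.8% and 23.9% of all 14113 symbols. Both of arrays 2 and 4 lay above both others for 22 of the 32, beside 14.4% of all symbols. Of the basal keratin genes, Krt14 was at 7.69, 10.80, 9.06 and 11.38 log2 and Krt5 at 7.24, 9.84, 8.53 and 10.73 log2. Of the keratins of differentiated layers, Krt10 averaged 10.02 ± 1.01 log2 (SD, n = 4), with 8.61 on array 3, and Krt1 at 8.63, 10.15, 8.54 and 11.20 log2. Krt10 was low on array 3 alone, in contrast to the basal keratins. The summed intensity of the 32 was 6505, 12150, 5072 and 18564 on arrays 1 to 4. The cornified layer gene Loricrin passed on array 1 only and Ivl on arrays 1 and 4. Both were highest on array 1, as were 7 of the 32 in all, beside 37.4% of all 14113 symbols.

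Fibroblast markers were also higher on arrays 2 and 4. Of 16 genes 12 passed on 4 of 4 arrays and 4 on some, with summed intensities of 2782, 9078, 5981 and 11967 on arrays 1 to 4, which include Fn1. Dcn, the gene of the collagen-binding proteoglycan decorin, was at 8.85, 11.49, 9.74 and 11.75 log2, and Sparc at 8.44, 11.12, 9.45 and 11.45 log2. Both arrays 2 and 4 were above both others in these genes, as in 14 of the 16. The fibrillar collagens had the same order of the pairs in narrower ranges, with Col1a1 at 8.18 ± 0.23 and Col3a1 at 7.73 ± 0.17 log2 (SD, n = 4). Of the low arrays, array 1 had the lowest sum here and array 3 in the keratinocyte list. Some of the 30 most variable named genes, beyond the list, had arrays 2 and 4 high as well, in wider ranges than these collagens. Chad, the gene of the matrix protein chondroadherin, was at 6.85, 10.59, 7.98 and 10.84 log2. Abi3bp was at 6.50, 9.79, 7.28 and 9.91 log2 and Cytl1 at 7.24, 9.99, 7.02 and 10.56 log2. The order was not confined to matrix genes. Array 4 alone was high for Arg1, the gene of arginase 1, at 6.03, 6.40, 7.19 and 9.81 log2.

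**Figure D5:**
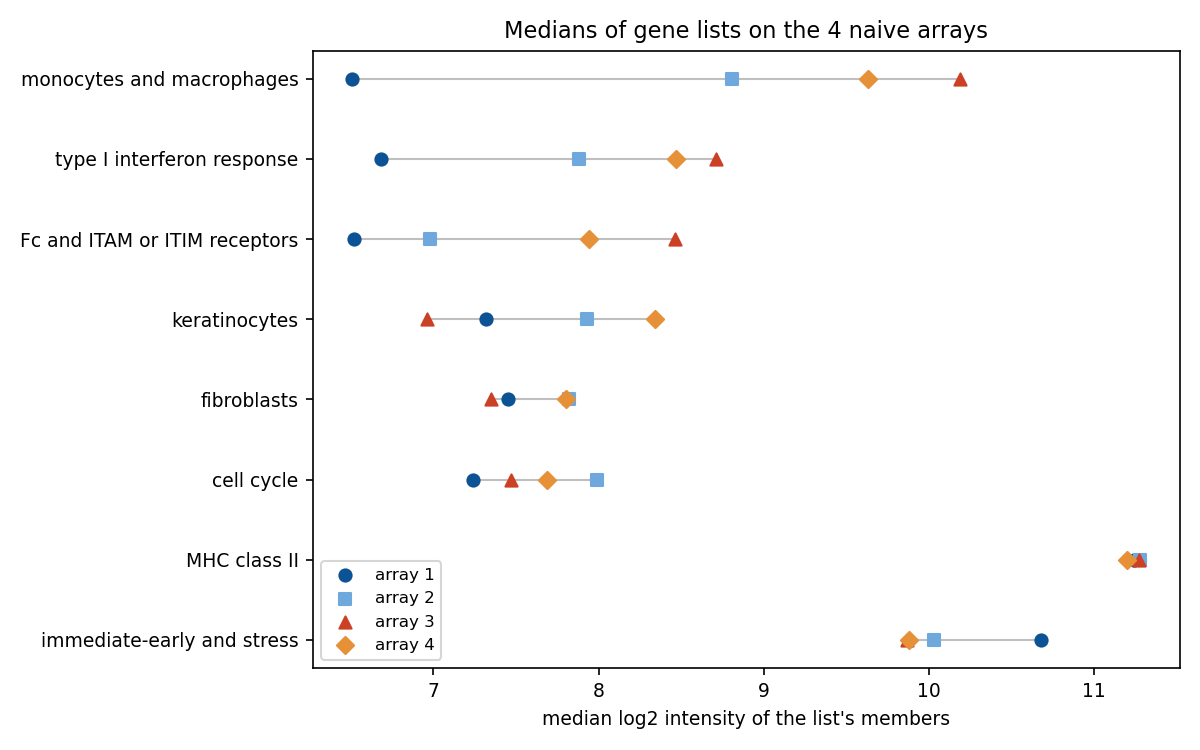
Median log2 intensity (x axis) of the members of 8 gene lists on arrays 1 to 4, with a grey line over the range. The monocyte and macrophage median runs from 6.51 on array 1 to 10.19 on array 3, while the class II medians lie between 11.20 and 11.28 log2.

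Most of the remaining lists of markers of skin and blood cells passed less often than the 54.8% of all other symbols. The exceptions were conventional dendritic cells, at 60.0%, and red cells and platelets, at 55.6%. T cell genes passed in 9 of 22, with Cd3e at 6.67, 6.45, 6.17 and 6.26 log2 and Cd3d and Cd3g below it on every array. Cd7 was the brightest T cell gene at 8.20 ± 0.72 log2 (SD, n = 4). Endothelial genes passed in 4 of 12, melanocyte genes in 3 of 8, with Tyr, Dct and Tyrp1 below the level throughout, and natural killer cell genes in 2 of 9. Neutrophil genes passed in 2 of 12, where S100a8 and Ly6g did not pass on any array, and B cell genes in 1 of 10, with Ms4a1 below. Without array 3 these counts were 4 of 12 and 2 of 10. Mast cell genes passed in 4 of 9, among them the protease gene Cpa3 at 8.35, 8.29, 6.46 and 7.37 log2, while Cma1 and Tpsab1 were among the 5 below the level on every array. Of conventional dendritic cell genes 9 of 15 passed. The brightest were the lectin genes Cd209a and Mgl2, at 9.62 ± 0.58 and 8.94 ± 1.13 log2 (SD, n = 4). Zbtb46 was at 6.64 ± 0.12 and Flt3 at 7.75 ± 0.48 log2 (SD, n = 4), whereas Xcr1 and Clec9a were below the level. The red cell and platelet list passed in 5 of 9, Hba-a1 at 7.43, 8.13, 8.89 and 9.30 log2. Xist, the RNA of the inactive X chromosome, was at 10.94, 11.70, 11.27 and 11.71 log2, and the Y-linked Ddx3y, Eif2s3y, Kdm5d and Uty were below the level on every array.

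At the other end, among the top 5% of symbols by mean, the steadiest named genes kept within hundredths of a log2. Eif1, a translation initiation factor gene, had an SD of 0.012 log2 at a mean of 10.28, and Irak2, a kinase gene of Toll-like receptor signalling, of 0.015 log2 at 9.35. At the digits given, Eif1 read 10.285 on both arrays 1 and 2, and Irak2 9.339 on both arrays 2 and 4. The part of such equal values in the small SDs was not tested. With the mean of all probe sets Eif1 averaged 9.80 log2. The small GTPase genes Rhoa and Rab7 were at 11.94 ± 0.03 and 9.75 ± 0.04 log2 (SD, n = 4). Arih1, Picalm, Ywhaz, Pura and Fxyd5 were also among the 10 steadiest.

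The labels record a single difference among these samples, the citation of an earlier record, which divides them into arrays 1 and 4, which cite one, and arrays 2 and 3, which cite none. Limma's test of all 14113 symbols called 0 of them (0%) at an adjusted p under 0.05, with 38 at an unadjusted p under 0.05 (0.269%) and a lowest adjusted p of 1. With 2 arrays a side an exact permutation test of a single gene cannot go below 0.33. The division cuts across the groups of arrays described above, since array 1 and array 4 lie on the same side of it. Sex was not given either, but Xist was bright and the Y-linked genes were below the level on all 4 arrays alike. Pool and sorting day were not given, so other differences between the arrays cannot be told apart.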

How the data were processed

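RNA of sorted Langerhans cells was labelled with biotin and hybridised to arrays of 1 colour. The authors deposited intensity values on a linear scale, normalised with RMA per the submitters' processing notes. The labels name neither the array design nor a genome build. The annotated table and the series matrix held the same 99688 values. Log2 was taken of each deposited intensity, and of the 24922 probe sets 1 was kept per symbol, by its mean over the 4 arrays. In 3303 probe sets (13.3%) at least 2 arrays had an equal value. Old symbols were updated through RefSeq synonyms. Limma 3.58.1 in R 4.3.3 compared arrays 1 and 4 with arrays 2 and 3, with Benjamini-Hochberg adjustment. On data simulated with normal noise drawn separately for each symbol (200 changed of 14113), it recovered 0% of changes of 1 log2. It recovered 46.0% of changes of 2 log2 and 83.3% of 4 log2. That noise leaves out what symbols share on an array, such as the distance of array 1 from the rest. These rates therefore need not hold for the real arrays. The members and lists were chosen with earlier results of these data known. Genes were named by rule: the 30 brightest, the 30 most variable and the 10 steadiest symbols, and of each list the brightest above the level and the first below it. Alternatives changed the limit, the scaling, the choice of probe set, an offset of 16 and the arrays used. The number of arrays limits the precision.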

Additional observations from a re-analysis of the deposited data

Results flagged for a closer look

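Of 293 values tested, namely the named genes and the list medians printed, 20 (6.83%) had 1 array far from the other 3 past the 95% critical value of Dixon's ratio. Chance flags about 1 in 20 groups, and 8.57% of all symbols above the limit on at least 1 array were marked in the same way. Array 1 stood low for Ccl7, at 7.16 log2 against 10.23 to 10.32 on the others, and for Rsad2, at 6.96 against 9.79 to 10.08 log2. It was also low for Rn18s at 12.88 log2, Cd44 at 9.45, Dusp1 at 12.32 and, by hundredths, Ccr9 at 5.26. Array 1 stood high for Ddx3y at 5.45 log2, Fcer1a at 5.83, Il18r1 at 5.71, Il2rb at 5.50 and Ccr8 at 5.25, none of which passed the olfactory receptor level on any array. Array 3 stood low for Col3a1 at 7.47 log2, ND4L at 12.96, Elf3 at 5.27, Ly6g at 4.32 and Eif1 at 10.26, the last within hundredths of the others. It stood high for Clec9a at 5.57 log2, Ptger2 at 6.01 and Isg15 at 5.97, and array 4 stood high for Fth1 at 13.25. No explanation of these values was tested.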

How the results depend on the processing

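At the 99th percentile of olfactory receptor symbols 5929 symbols and 471 list members passed, against 11305 and 713 at the 95th, and 21 of 34 lists had counts over 1.5 times lower, among them 13 of 53 C-type lectins, 4 of 25 chemokine receptors, 13 of 38 chemokines and 13 of 36 interferon genes. Leaving out 1 array gave 11363 to 12044 symbols and 713 to 779 members. Passing on at least 2 arrays gave 36 C-type lectins and 22 costimulation ligands. Of the 30 highest symbols 28 to 30 were shared under every alternative run. Of the 50 most variable, 22 were shared without array 1, 42 without array 2, 38 without array 3 and 39 without array 4. Among symbols above the limit on 4 of 4 arrays 25 were shared. The count with an SD over 1 log2 was 122 to 411 without 1 array, lowest without array 1 and highest without array 2, and 160 among symbols above the limit on 4 of 4 arrays. The cause was not tested. Under quantile normalisation and median centring, chosen after seeing the data, array 1 was lowest for 224 and 229 of the 263 most variable symbols, for 33 and 34 of the interferon genes and for 18 of 18 monocyte and macrophage genes in both. The record comparison called 0 symbols with limma under every alternative run, with 8 to 2006 at an unadjusted p under 0.05 when 1 array was left out. Taking the mean of all probe sets moved the mean of 11 of 287 named genes by more than its SD, Cd80 to 8.20 and Cd47 to 8.98 log2 among them. An offset of 16 moved 60 of 287, mostly dim genes. Leaving out array 2 moved 1 of 287, Cd209a, to 10.32 log2, where a different probe set was kept. No paired analysis was possible because the results come from 1 group of samples.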
